A study of Bos taurus with 37 samples.

Results

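The DNAJ co-chaperones were read out in single bovine blastocysts. They were taken as the genes whose symbol in the FPKM table starts with DNAJA, DNAJB or DNAJC and a number, with the stress-inducible DNAJB1 kept apart, which gave 42 of 22628 rows. The table held 37 libraries: 35 single blastocysts and 2 libraries of donor fibroblasts. SCNT blastocysts (SCNT-BLs, 6 male and 6 female) grew from enucleated oocytes fused with 1 ear skin fibroblast each and then activated, with agents not given in the sources used here. Sham NT blastocysts (sham NT-BLs, 6 male and 5 female) grew from fertilised zygotes that had lost the polar body and some ooplasm to the pipette and were then activated with ionomycin and DMAP, while both pronuclei stayed in place. IVF blastocysts (IVF-BLs, 6 male and 6 female) were fertilised in vitro and not manipulated. Male and female adult ear skin fibroblasts were the donors and gave 1 library each, and the number of donor animals is not given in the sources used here, so SCNT-BLs of a sex may share 1 genome, whereas each fertilised embryo has its own. The sexes were sequenced on separate flow cells, so sex and flow cell cannot be told apart, and levels were compared within a sex only.

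DNAJ proteins carry a J domain, through which they stimulate the ATPase of an Hsp70 partner and hand it an unfolded client. Class A members resemble the bacterial DnaJ, class B members share its glycine-rich stretch, and class C members share only the J domain, which they bring to a particular place: the ER lumen or membrane, the mitochondrial import channel, the spliceosome, the ribosome or a clathrin-coated vesicle. Early embryos grow on oocyte-derived proteins that are being replaced, and protein folding capacity belongs to the functions a blastocyst has to run for itself.

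Values are FPKM, fragments scaled to transcript length and to the fragments mapped in the library, so levels can be set side by side between genes. Each comparison was made on log2(FPKM + 1) with limma across all genes that averaged above 0.1 FPKM in the 2 groups (4 for the sex comparison), and adjusted p-values are Benjamini-Hochberg values over all those genes. A member was called when its adjusted p was under 0.05, and log2 differences below are on that scale with their SE, which understates the change of low genes. The p-values measure the spread between embryos, and nothing states how many fertilisation or transfer sessions the embryos came from. Whole blastocysts were measured, so a smaller share of a cell type and less RNA per cell cannot be told apart.

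Summed FPKM ran from 414105 to 601000, and 12318 to 15321 rows were above 0. Female SCNT-BLs 5 and 6 stood apart with 12318 and 12403 rows above 0 and the lowest median correlations with their own group (0.868 and 0.851). The labelled cell types held: the 10 fibroblast markers summed to 2.52 to 36.1 FPKM in the blastocysts, against 10949 and 6297 in the male and female donors, and the 7 trophectoderm markers summed to 1732 to 8556 FPKM in the blastocysts, against 27.1 and 28.7 in the donors. Of the fibroblast markers, S100A4 was at 0 in all 35 embryos. The submitters' source label names blastocysts also for the donor libraries, while their titles and these markers give donor cells.

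Most of the DNAJ family was expressed in the blastocyst. The median over the 35 embryos was above 10 FPKM for 21 members (50.0%, against 22.7% of all rows), from 1 to 10 FPKM for 11 and not above 1 FPKM for 10. At 1 FPKM, 32 members (76.2%) passed, against 44.8% of all rows, and 25 members were above 1 FPKM in every embryo. The heat map of all members shows these levels library by library.

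**Figure D1:**
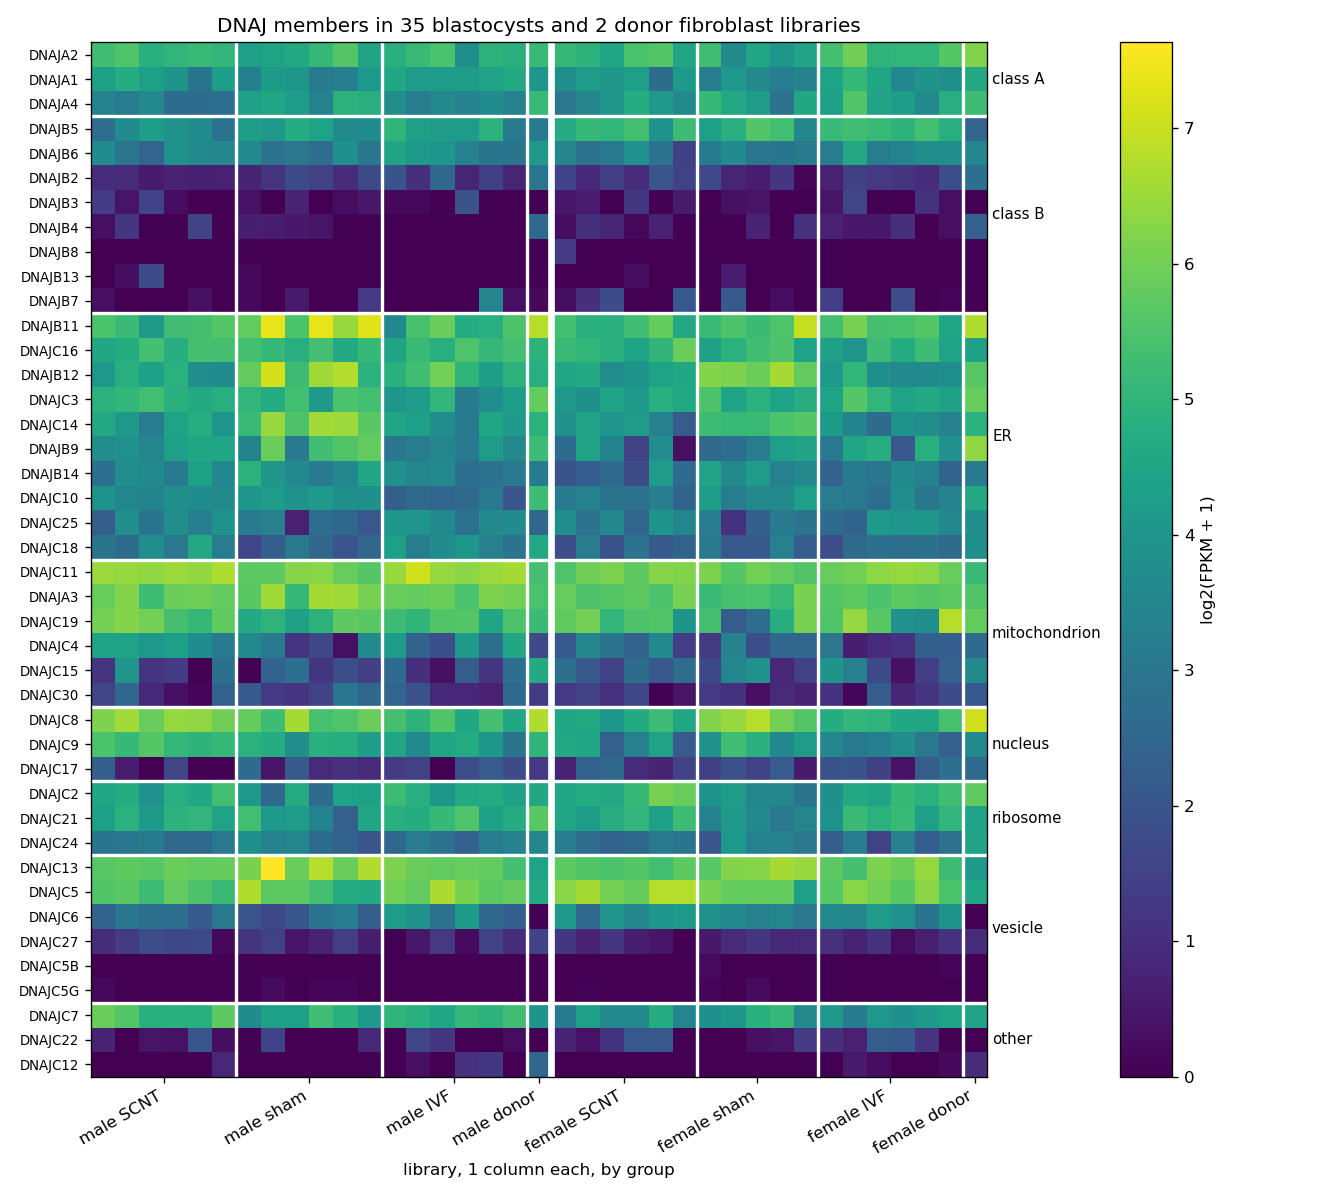
Level of each of the 42 DNAJ members (rows, grouped by cellular place) in each library (columns, grouped by sex and origin), as log2(FPKM + 1). Rows such as DNAJC11, DNAJC13 and DNAJC5 are bright throughout, DNAJC5B and DNAJB8 are dark throughout, and DNAJC14 and DNAJB12 brighten in the sham NT-BLs.

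The 10 most abundant members by their median over the 35 embryos were DNAJC11 (75.0 FPKM), DNAJC13 (56.0), DNAJC5 (55.1), DNAJA3 (52.4), DNAJC19 (44.5), DNAJC8 (41.4), DNAJB11 (41.3), DNAJC16 (32.3), DNAJA2 (31.4) and DNAJB12 (27.7). They belong to mitochondria, endosomes and vesicles, the nucleus, the ER and the cytosol, so no single compartment led. Most neighbours in this order overlapped in their ranges over the embryos: DNAJC13, for example, spanned 36.6 to 198 FPKM and DNAJC5 19.4 to 109 FPKM.

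At the other end, 6 members had a median of 0: DNAJB7, DNAJB8 and DNAJB13, which in mouse and human belong mainly to the testis, DNAJC5B and DNAJC5G, relatives of the vesicle protein DNAJC5, and DNAJC12, a co-chaperone of aromatic amino acid hydroxylases. Of these, DNAJC5B, DNAJB8, DNAJB13 and DNAJC5G reached 0.1 FPKM in the median of no embryo group. DNAJB7 was at 0 in 19 of 35 embryos but reached 10.2 FPKM in a male IVF-BL. It overlaps XPNPEP3 in a later bovine assembly, so its reads may be shared. The other low members were DNAJC27 (median 0.871 FPKM), DNAJC22 (0.326), DNAJB3 (0.200) and DNAJB4 (0.194).

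Between embryos of a group, the members had lower coefficients of variation than all rows. Among members with a group mean over 1 FPKM the median coefficient of variation was 31.5% in male SCNT-BLs (all rows over 1 FPKM: 39.9%), 45.2% in male sham NT-BLs (49.4%), 33.7% in male IVF-BLs (41.5%), 38.9% in female SCNT-BLs (47.4%), 35.9% in female sham NT-BLs (42.6%) and 36.3% in female IVF-BLs (42.7%). The members were not matched to the other rows for level, so the lower values are given as a description. In IVF-BLs the steadiest members were DNAJA1 in males (14.5%), a general cytosolic class A co-chaperone, and DNAJA3 in females (7.06%), its mitochondrial counterpart. The most variable were DNAJB7 in males (238%) and DNAJC15, a subunit-like protein of the mitochondrial import channel, in females (103%).

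The 6 contrasts within a sex gave between 0 and 7 called members each, and the shares lay near those of all genes. In male SCNT-BLs against male IVF-BLs 3 of 39 tested members rose and none fell, where 6.98% of all 14906 genes tested were called (3.34% higher and 3.64% lower). In female SCNT-BLs against female IVF-BLs none of 38 members was called by limma, 0 members had an unadjusted p under 0.05 (up to 3 under the other settings tried, and 10.9% of all genes), and 0.321% of 15256 genes were called (0.210% higher and 0.111% lower). In male sham NT-BLs against male IVF-BLs 4 of 38 members rose and 2 fell, at 12.1% of 14902 genes called (6.13% higher and 5.96% lower). In female sham NT-BLs against female IVF-BLs 4 of 37 members rose and 3 fell, at 13.5% of 15259 genes called (7.03% higher and 6.47% lower).

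The SCNT-BLs differed from the sham NT-BLs in similar numbers. In males 2 of 38 members were higher in SCNT-BLs and 4 lower, at 11.8% of 14783 genes called (5.67% higher and 6.13% lower), and in females 2 of 38 were higher and 3 lower, at 11.3% of 15116 genes called (5.21% higher and 6.07% lower). The comparisons of a sex share groups (IVF-BLs, sham NT-BLs and SCNT-BLs each enter 2 of them), so a gene that stands out in 1 group can appear in both comparisons of that group.

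The members' median differences lay near those of all genes. The median log2 difference of the members tested was -0.03 in male SCNT-BLs against male IVF-BLs (all genes -0.01), -0.11 in female SCNT-BLs against female IVF-BLs (all genes -0.04), -0.08 in male sham NT-BLs against male IVF-BLs (all genes -0.02), and -0.19 in female sham NT-BLs against female IVF-BLs (all genes -0.09). It was 0.14 in male SCNT-BLs against male sham NT-BLs (all genes 0.01) and 0.12 in female SCNT-BLs against female sham NT-BLs (all genes 0.04). Summed over the 42 members, an embryo held 725 to 910 FPKM in male SCNT-BLs, 755 to 1193 in male sham NT-BLs and 716 to 857 in male IVF-BLs. The sums were 608 to 816 FPKM in female SCNT-BLs, 771 to 813 in female sham NT-BLs and 642 to 883 in female IVF-BLs. The plot of differences from IVF-BLs shows the members spread to both sides of 0.

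**Figure D2:**
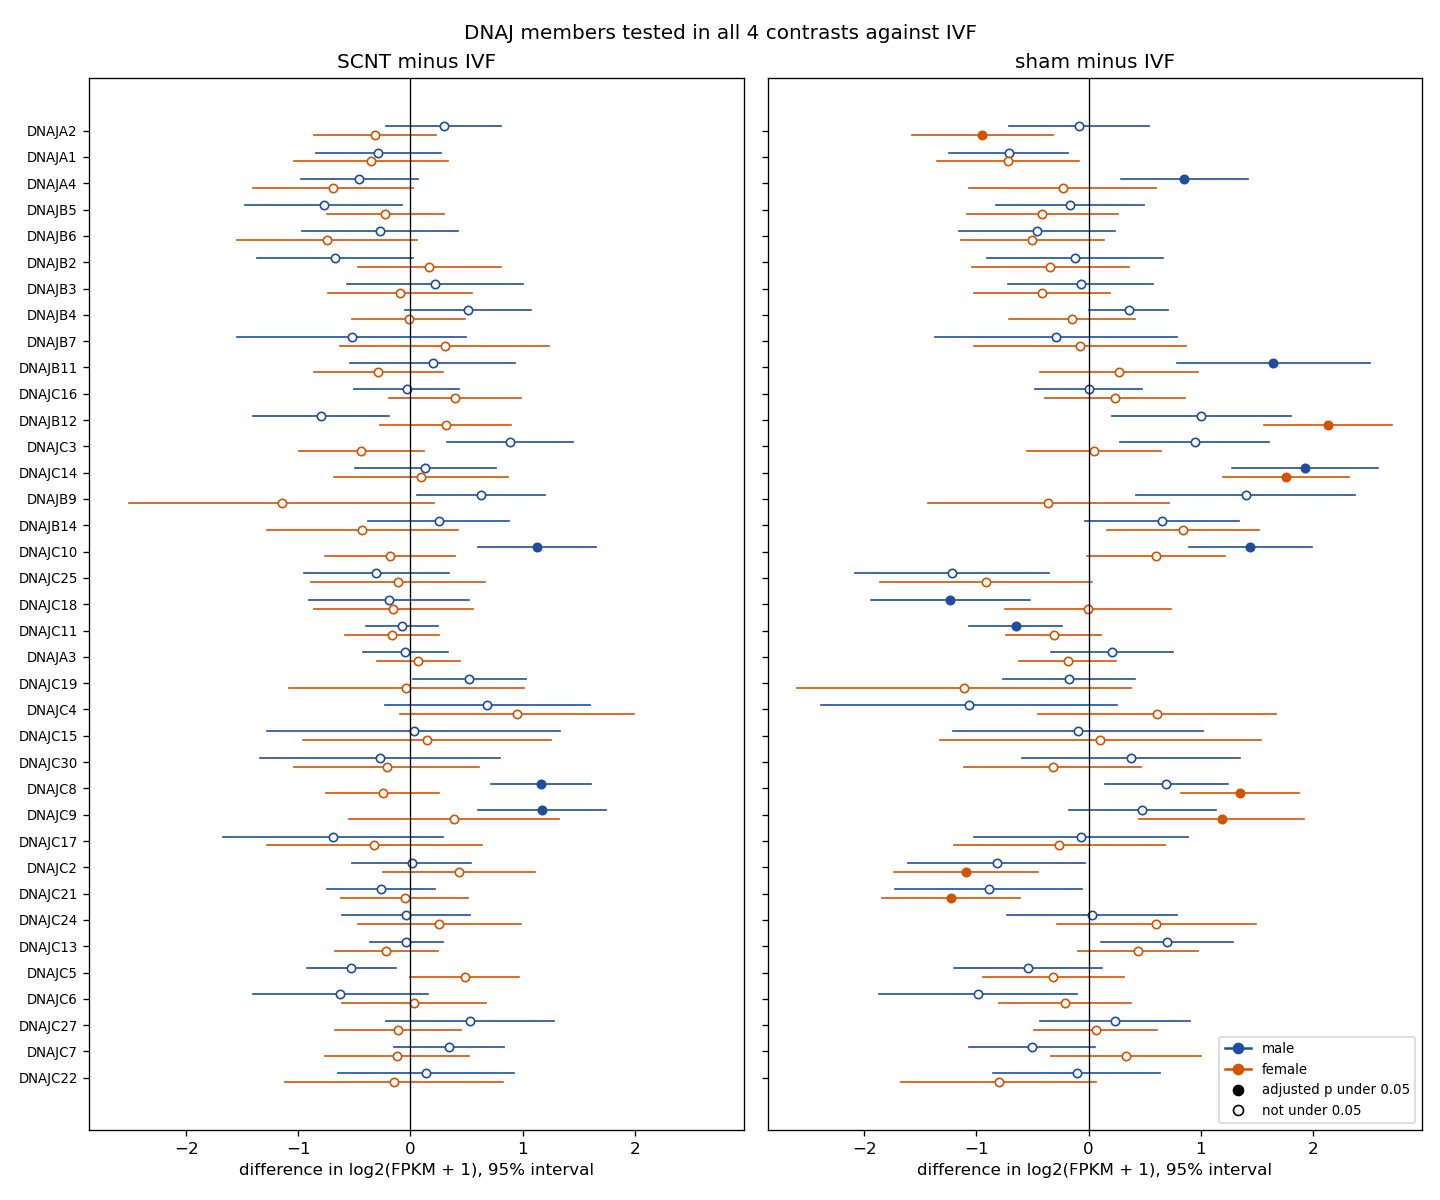
Difference in log2(FPKM + 1) of SCNT-BLs (left) and sham NT-BLs (right) from IVF-BLs of the same sex, with its 95% interval, for members tested in all 4 contrasts. Filled points have an adjusted p under 0.05: 3 male and 0 female points on the left, 6 male and 7 female points on the right.

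Some groups separated completely. No value of one group overlapped the other's for 7.69% of the members in male SCNT-BLs against male IVF-BLs (4.27% of all genes tested) and for none in female SCNT-BLs against female IVF-BLs (1.38%). The shares were 10.5% in male sham NT-BLs against male IVF-BLs (6.62%), 8.11% in female sham NT-BLs against female IVF-BLs (9.02%), 10.5% in male SCNT-BLs against male sham NT-BLs (6.39%) and 13.2% in female SCNT-BLs against female sham NT-BLs (8.48%).

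The ER members, the largest group by role, held 12 calls in 60 tests over the 6 contrasts, where 9.31% of the 90222 tests of all genes gave a call. The nuclear members held 5 in 18 tests and the ribosome-linked members 4 in 18. The 12 ER calls came from DNAJC14, DNAJB12, DNAJB11, DNAJC10 and DNAJC18, some counted again in contrasts that share groups. Here, as in the counts above, members were not matched to the other genes for level. Calls are more frequent among higher genes: in male sham NT-BLs against IVF-BLs, a filter of 1 FPKM gave 2034 calls in 10968 genes, against 1801 in 14902. Of the 10 ER members in the table, 3 rose and 1 fell in male sham NT-BLs against IVF-BLs, and 2 rose and none fell in female sham NT-BLs. Some serve BiP, the Hsp70 of the ER lumen, and others sit in the ER membrane with the J domain facing cytosolic Hsp70.

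DNAJC14, an ER membrane protein known in human cells for the export of receptors from the ER, was called in sham NT-BLs against IVF-BLs in both sexes. It had 8.26 (lowest), 18.5 (median) and 25.8 (highest) FPKM in male SCNT-BLs and 35.2, 68.8 and 94.9 FPKM in male sham NT-BLs, against 7.83, 17.8 and 21.7 FPKM in male IVF-BLs. In females it had 3.56, 14.1 and 20.2 FPKM in SCNT-BLs and 36.9, 34.7, 34.3, 42.9 and 48.1 FPKM in the 5 sham NT-BLs, against 5.51, 11.2 and 16.9 FPKM in IVF-BLs. Every sham NT-BL lay above every IVF-BL of its sex. Mean DNAJC14 was 4.05 times higher in male and 3.46 times higher in female sham NT-BLs than in IVF-BLs (log2 difference 1.93 ± 0.31, SE, adjusted p 7.2e-04 in males, and 1.76 ± 0.26, adjusted p 5.0e-04 in females). The SCNT-BLs also lay wholly below the sham NT-BLs of their sex (-1.79 ± 0.31, adjusted p 0.0014 in males, and -1.67 ± 0.35, adjusted p 0.0060 in females). SCNT-BLs and IVF-BLs overlapped, with log2 differences of 0.13 (95% interval -0.50 to 0.76) in males and 0.10 (-0.68 to 0.87) in females.

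DNAJB12, an ER membrane co-chaperone that helps cytosolic Hsp70 draw misfolded membrane proteins into degradation, was also highest in sham NT-BLs. It had 11.96, 17.7 and 28.2 FPKM in male SCNT-BLs and 28.4, 73.6 and 141 FPKM in male sham NT-BLs, against 18.3, 29.98 and 63.3 FPKM in male IVF-BLs. In females it had 12.5, 21.0 and 24.6 FPKM in SCNT-BLs and 73.0, 70.0, 59.0, 96.0 and 54.2 FPKM in sham NT-BLs, against 11.4, 13.0 and 31.6 FPKM in IVF-BLs. Sham NT-BLs and IVF-BLs separated completely in females and overlapped in males. The rise was 4.39-fold in females (2.13 ± 0.27, adjusted p 1.6e-04), while the male difference of 1.01 ± 0.38 did not pass (adjusted p 0.0978). SCNT-BLs were wholly below the sham NT-BLs of their sex, with differences of -1.80 ± 0.37 in males (adjusted p 0.0043) and -1.82 ± 0.24 in females (adjusted p 3.2e-04). Against IVF-BLs, male SCNT-BLs differed by -0.80 ± 0.29 (adjusted p 0.112).

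DNAJB11 (ERdj3), a soluble partner of BiP in the ER lumen, was called in males. It had 16.1, 39.2 and 48.1 FPKM in male SCNT-BLs and 43.1, 120 and 166 FPKM in male sham NT-BLs, against 10.8, 34.1 and 58.0 FPKM in male IVF-BLs. The ranges overlapped at their edges. It was higher in sham NT-BLs than in IVF-BLs by 1.65 ± 0.41 (3.23-fold, adjusted p 0.0136) and lower in SCNT-BLs than in sham NT-BLs, with a difference of -1.45 ± 0.36 (adjusted p 0.0136). The 5 female sham NT-BLs had 34.4, 44.2, 36.2, 45.3 and 122 FPKM, against 22.0, 41.2 and 66.4 FPKM in female IVF-BLs. The female difference was 0.27 ± 0.33 (adjusted p 0.628), and the difference between the sexes, 1.38 ± 0.56, did not pass (adjusted p 0.296).

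DNAJC10 (ERdj5), a disulfide reductase of ER-associated degradation, was low in male IVF-BLs. It had 9.86, 11.5 and 14.1 FPKM in male SCNT-BLs and 12.9, 14.5 and 17.3 FPKM in male sham NT-BLs, against 3.0003, 4.94 and 7.45 FPKM in male IVF-BLs. Neither manipulated group overlapped the IVF-BLs. The rise was 2.38-fold in SCNT-BLs (1.13 ± 0.25, adjusted p 0.0129) and 2.999-fold in sham NT-BLs (1.44 ± 0.26, adjusted p 0.0017). In females it had 4.48, 7.38 and 9.39 FPKM in SCNT-BLs and 18.0, 8.20, 11.1, 11.4 and 18.8 FPKM in sham NT-BLs, against 5.70, 7.88 and 12.4 FPKM in IVF-BLs. The female groups overlapped, and the female differences from IVF-BLs were -0.18 (95% interval -0.76 to 0.40) for SCNT-BLs and 0.60 (-0.02 to 1.22) for sham NT-BLs.

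**Figure D3:**
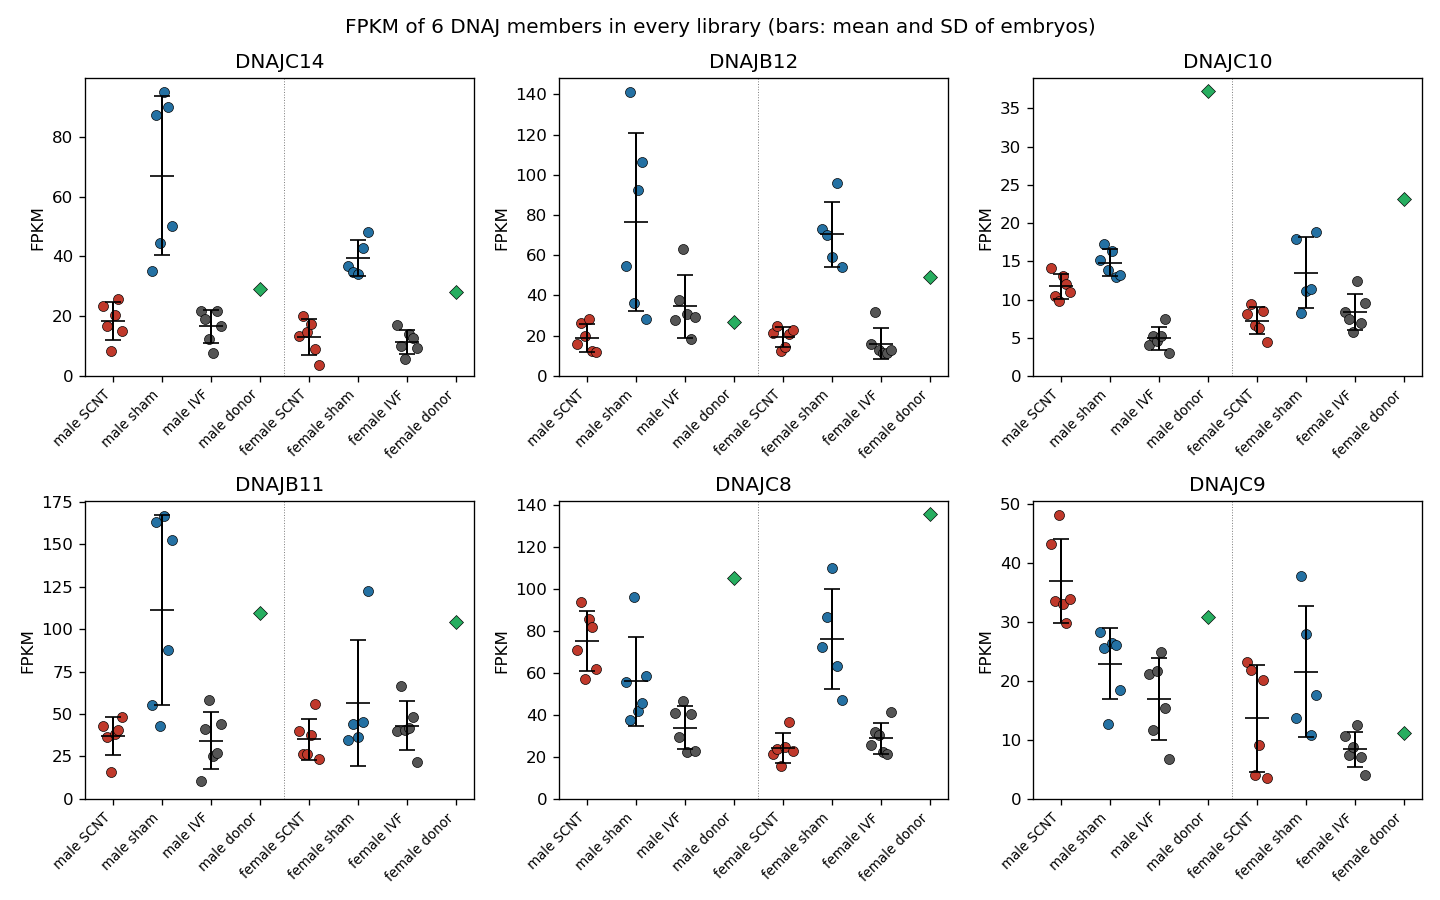
FPKM of 6 DNAJ members in every library, by sex and origin, with 1 point per embryo, the mean and the SD of each embryo group, and a diamond for the 1 donor library of each sex. DNAJC14 in sham NT-BLs lies above every IVF-BL and SCNT-BL of the same sex, and DNAJC10, DNAJC8 and DNAJC9 in male SCNT-BLs lie above every male IVF-BL.

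DNAJC18, a relative of DNAJB12, had 2.05, 4.35 and 7.40 FPKM in male sham NT-BLs, against 6.43, 10.4 and 18.8 FPKM in male IVF-BLs, with a narrow overlap. It fell in male sham NT-BLs (-1.23 ± 0.34, adjusted p 0.0239), a call lost without any 1 of male IVF-BLs 1 and 4 and male sham NT-BL 5 (adjusted p up to 0.0630). It was 1.04 ± 0.36 higher in male SCNT-BLs than in male sham NT-BLs (adjusted p 0.0764), and the female sham difference was -0.01 ± 0.35. DNAJC25 had 0.619, 5.38 and 9.01 FPKM in male sham NT-BLs, against 6.30, 11.8 and 15.1 FPKM in male IVF-BLs (-1.22 ± 0.41, adjusted p 0.0649), and differed by 0.92 ± 0.44 between male SCNT-BLs and male sham NT-BLs (adjusted p 0.205). Without male IVF-BL 4, or male sham NT-BL 1 or 2, the adjusted p of DNAJC25 against IVF-BLs was 0.0421 to 0.0488, and it passed with a filter of 1 FPKM (0.0445) and with all 35 embryos in 1 fit (0.0334).

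The remaining ER members were not called. DNAJB9 (ERdj4), a BiP partner that in mouse and human cells holds the stress sensor IRE1 inactive, was the most uneven. It had 7.61, 42.3 and 58.8 FPKM in male sham NT-BLs, where replicates 1 and 3 were at 9.94 and 7.61 FPKM and the other 4 above 38 FPKM, against 6.96, 9.36 and 17.7 FPKM in male IVF-BLs (1.40 ± 0.46, adjusted p 0.0596). In female SCNT-BLs DNAJB9 had 0.231, 7.63 and 20.9 FPKM, against 3.19, 17.4 and 26.9 FPKM in female IVF-BLs (-1.15 ± 0.64, adjusted p 0.529). DNAJC3 (p58IPK), a BiP partner and inhibitor of the kinase PERK, had 23.9, 28.3 and 39.2 FPKM in male SCNT-BLs, against 7.63, 16.1 and 31.7 FPKM in male IVF-BLs (0.89 ± 0.27, adjusted p 0.0556), and without male IVF-BL 3 its adjusted p was 0.0158. DNAJC16, an ER membrane protein, had its largest difference in the 6 contrasts at 0.40 (95% interval -0.19 to 0.99), in female SCNT-BLs against female IVF-BLs. DNAJB14, a close relative of DNAJB12 in the ER membrane, had a median of 10.1 FPKM over the 35 embryos.

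Genes of the unfolded protein response changed in both directions in the sham NT-BLs. Of 20 genes listed for it, 5 rose (EDEM1, ATF6, PDIA4, DDIT3 and CANX) and 2 fell (MANF and CRELD2) in male sham NT-BLs against IVF-BLs, and 4 rose (SEL1L, ATF6, PDIA4 and DDIT3) and 3 fell (PPP1R15A, MANF and ATF4) in females. In these contrasts 12.1% of all genes tested were called in males and 13.5% in females. The list median was 0.21 in males and 0.17 in females (all genes -0.02 and -0.09). ATF6, the ER-anchored transcription factor of this response, had 218, 347 and 647 FPKM in male sham NT-BLs, against 86.0, 121 and 138 FPKM in male IVF-BLs (1.69 ± 0.28, adjusted p 9.0e-04), and rose by 2.18 ± 0.31 in females (adjusted p 3.2e-04). MANF, a secreted ER protein that the response normally induces, fell by 2.12 and 3.11 on the log2 scale in male and female sham NT-BLs (adjusted p 0.0335, lost without the filter at 0.0704, and 5.1e-04). HSPA5 (BiP) itself was not called: it had 109, 457 and 629 FPKM in male sham NT-BLs, against 107, 253 and 406 FPKM in male IVF-BLs (0.53 ± 0.43, adjusted p 0.482), and differed by -0.41 ± 0.27 in females (adjusted p 0.356).

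Markers of the embryo's cell types were compared in the same groups. The 4 inner cell mass markers summed to 16.7 to 66.9 FPKM in male sham NT-BLs, against 58.6 to 92.1 in male IVF-BLs, and to 35.1 to 67.4 FPKM in female sham NT-BLs, against 69.7 to 171 in female IVF-BLs. POU5F1 weighs most in these sums, with a median of 46.6 FPKM over the 35 embryos, against 16.5 for SOX2, 3.39 for LIN28B and 3.24 for NANOG. POU5F1, the 1 of the 4 that was called, was lower in both sexes (-1.69 ± 0.27 and -1.97 ± 0.33, adjusted p 7.2e-04 and 0.0011), and NANOG was at 0 in 6 of the 35 embryos. The median log2 difference of the 4 markers was -0.70 in males and -0.16 in females. The 10 fibroblast markers summed to 5.66 to 36.1 FPKM in male sham NT-BLs, against 5.50 to 9.48 in male IVF-BLs, and none of the 6 tested was called between these groups. Of the primitive endoderm markers GATA4 was lower in male sham NT-BLs (-1.22 ± 0.31, adjusted p 0.0158) and GATA6 in female ones (-0.95 ± 0.24, adjusted p 0.0180), and of the trophectoderm markers IFNT2 was lower in the females (-3.13 ± 0.58, adjusted p 0.0022). In male SCNT-BLs against male sham NT-BLs, the fibroblast markers COL1A1 and COL1A2 were called lower, and CDX2, POU5F1 and GATA6 higher. In female SCNT-BLs against female sham NT-BLs, the fibroblast marker THY1 was called higher, as were IFNT2, POU5F1 and GATA6. The part of these differences in the DNAJ values was not tested.

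The nuclear members DNAJC8 and DNAJC9 rose together in 2 different settings. Both were higher in male SCNT-BLs than in male IVF-BLs, and both were higher in female sham NT-BLs than in female IVF-BLs. The third nuclear member, DNAJC17, a splicing-associated protein, was low (median 1.79 FPKM) and was not called. It differed by -0.69 ± 0.46 between male SCNT-BLs and male IVF-BLs (adjusted p 0.432). The 4 primitive endoderm markers summed to 169 to 254 FPKM in male SCNT-BLs, against 93.5 to 164 in male IVF-BLs, and the 7 cumulus markers to 11.3 to 38.3 FPKM, against 3.56 to 21.2. Of these, GATA6 was called (0.85 ± 0.17, adjusted p 0.0074), as was the trophectoderm marker GATA3 (0.80 ± 0.21, adjusted p 0.0306, and 0.0512 with no filter). None of the 4 cumulus markers tested was called. CYP19A1 and FSHR had the highest cumulus medians over the 35 embryos (8.40 and 6.28 FPKM), and PTX3, AMH and INHA had a median of 0. The male and female donor fibroblasts summed to 17.8 and 13.8 FPKM for the 7 cumulus markers. The sum alone therefore cannot tell whether cumulus cells were present, which was not tested. The part of these markers in the DNAJ values was not tested.

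DNAJC8, which binds splicing kinases and is found with the spliceosome, had 57.0, 76.3 and 93.9 FPKM in male SCNT-BLs, against 22.4, 34.9 and 46.7 FPKM in male IVF-BLs. Every male SCNT-BL lay above every male IVF-BL, a 2.23-fold rise (1.16 ± 0.21, adjusted p 0.0039). In females it had 15.6, 23.4 and 36.8 FPKM in SCNT-BLs, against 21.2, 28.0 and 41.4 FPKM in IVF-BLs, which overlapped (-0.25 ± 0.24, adjusted p 0.718). The male effect exceeded the female one by 1.41 ± 0.31 (interaction, adjusted p 0.0199), and 1.91% of 15425 genes passed this test in either direction. In female sham NT-BLs DNAJC8 had 72.4, 86.5, 110, 63.4 and 47.2 FPKM, above every female IVF-BL (2.63-fold, 1.35 ± 0.25, adjusted p 0.0022) and above every female SCNT-BL (SCNT minus sham -1.60 ± 0.26, adjusted p 0.0015). Male sham NT-BLs, at 37.5, 50.7 and 96.2 FPKM, differed from male IVF-BLs by 0.69 ± 0.26 (adjusted p 0.0988).

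DNAJC9, a co-chaperone that carries histones H3 and H4, had 29.8, 33.8 and 48.2 FPKM in male SCNT-BLs, against 6.81, 18.3 and 24.9 FPKM in male IVF-BLs. The groups did not overlap, and DNAJC9 was 2.18 times higher (1.17 ± 0.27, adjusted p 0.0167). Fitted with all 35 embryos, this call just missed the threshold (adjusted p 0.0515). In female sham NT-BLs it had 13.6, 37.8, 28.0, 10.9 and 17.6 FPKM, against 4.11, 8.07 and 12.6 FPKM in female IVF-BLs, a 2.56-fold rise with overlap (1.19 ± 0.35, adjusted p 0.0327). That call was lost without any 1 of female IVF-BLs 2, 3, 5 and 6 or female sham NT-BLs 2 and 3 (adjusted p up to 0.0939). Female SCNT-BLs had 23.1, 21.9, 4.04, 9.12, 20.1 and 3.53 FPKM of DNAJC9, a range that took in all female IVF-BLs. The gene overlaps FAM149B1 in a later bovine assembly and the libraries do not keep strand, so reads of the pair may be shared. FAM149B1 itself was not called, at -0.40 in male SCNT-BLs against male IVF-BLs (adjusted p 0.579).

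The ribosome-linked members DNAJC2 and DNAJC21 were low in female sham NT-BLs. DNAJC2 (MPP11) sits on the ribosome with an Hsp70 and helps nascent chains fold, DNAJC21 takes part in the maturation of the large ribosomal subunit, and DNAJC24, the third of the group, is needed to make diphthamide on elongation factor 2. DNAJC21 had 18.3, 23.9 and 37.6 FPKM in female SCNT-BLs and 9.25, 16.1, 11.5, 7.13 and 10.1 FPKM in female sham NT-BLs, against 14.2, 29.9 and 36.1 FPKM in female IVF-BLs. Only the highest sham NT-BL reached into the IVF range, and none reached the SCNT-BLs. In sham NT-BLs DNAJC21 fell to 0.398 times the IVF mean (-1.23 ± 0.29, adjusted p 0.0103) and was higher in SCNT-BLs than in sham NT-BLs by 1.18 ± 0.27 (adjusted p 0.0119).

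DNAJC2 had 21.6, 29.2 and 66.8 FPKM in female SCNT-BLs and 14.1, 17.2, 10.2, 10.6 and 6.65 FPKM in female sham NT-BLs, against 13.2, 26.2 and 38.4 FPKM in female IVF-BLs. The SCNT-BLs lay wholly above the sham NT-BLs. In sham NT-BLs it fell to 0.443 times the IVF mean (-1.10 ± 0.30, adjusted p 0.0252), a call lost without any 1 of female IVF-BLs 4 and 6 or female sham NT-BLs 3, 4 and 5 (adjusted p up to 0.0578), and was 3.22 times higher in SCNT-BLs than in sham NT-BLs (1.53 ± 0.34, adjusted p 0.0085). Male sham NT-BLs pointed the same way without passing, at -0.82 ± 0.37 for DNAJC2 (adjusted p 0.177) and -0.89 ± 0.39 for DNAJC21 (adjusted p 0.163). The female SCNT difference from IVF-BLs was 0.43 ± 0.32 for DNAJC2 (adjusted p 0.643). DNAJC24 was not called in any contrast.

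Mitochondrial members were led by DNAJC11, a protein of the complex that joins the outer and inner mitochondrial membranes. It had 81.9, 86.6 and 103 FPKM in male SCNT-BLs and 48.2, 54.4 and 76.3 FPKM in male sham NT-BLs, against 78.0, 87.1 and 135 FPKM in male IVF-BLs. Male sham NT-BLs lay below every other male blastocyst. In sham NT-BLs DNAJC11 fell to 0.633 times the IVF mean (-0.65 ± 0.20, adjusted p 0.0389), and SCNT-BLs exceeded sham NT-BLs by 0.57 ± 0.18 (adjusted p 0.0480). Both calls stood near the threshold: the first was lost without any 1 of male IVF-BLs 1, 2, 3, 5 and 6 or male sham NT-BLs 1, 2, 5 and 6 (adjusted p up to 0.0974), the other without any 1 of the 6 male SCNT-BLs or of male sham NT-BLs 1, 2, 5 and 6 (up to 0.101), and median centring ended both (0.0644 and 0.0595). In females DNAJC11 had 69.4, 48.6, 63.6, 54.6 and 46.0 FPKM in sham NT-BLs, against 56.9, 71.4 and 84.6 FPKM in IVF-BLs (-0.31 ± 0.20, adjusted p 0.345).

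DNAJC4, a membrane-bound member of poorly known function, was called in the comparison of male SCNT-BLs with male sham NT-BLs. It had 7.70, 17.3 and 20.2 FPKM in male SCNT-BLs, against 0.280, 5.00 and 11.5 FPKM in male sham NT-BLs (1.75 ± 0.53, adjusted p 0.0413), with overlap. The call was lost without any 1 of male SCNT-BLs 1 to 5 or male sham NT-BLs 3, 4 and 5 (adjusted p up to 0.0868), and without the filter on low genes (0.0794). Male IVF-BLs ran from 2.65 to 22.3 FPKM and were not called against either group, at -1.07 ± 0.62 for sham NT-BLs (adjusted p 0.312). In females DNAJC4 was 0.95 ± 0.49 higher in SCNT-BLs than in IVF-BLs (adjusted p 0.496).

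DNAJC19 (TIM14), which drives the mitochondrial Hsp70 at the import channel, was uneven in female embryos. It had 14.6, 45.4 and 64.1 FPKM in female SCNT-BLs and 40.8, 3.63, 5.75, 26.2 and 65.5 FPKM in female sham NT-BLs, against 12.9, 47.6 and 109 FPKM in female IVF-BLs. With such overlap neither the sham difference of -1.11 ± 0.70 from IVF-BLs (adjusted p 0.341) nor that of 1.07 ± 0.60 between SCNT-BLs and sham NT-BLs (adjusted p 0.288) passed. Its paralogue DNAJC15 was low (median 2.50 FPKM). DNAJA3 had 43.4, 49.5 and 52.4 FPKM in female IVF-BLs and 43.1, 58.5 and 71.1 FPKM in male IVF-BLs. The medians of DNAJA3 in the embryo groups ran from 41.6 to 79.0 FPKM, and it was not called in any contrast.

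HSPA9 (mortalin), the Hsp70 of the mitochondrial matrix with which DNAJA3 and DNAJC19 work, rose in male SCNT-BLs and fell in female sham NT-BLs. It had 271, 399 and 488 FPKM in male SCNT-BLs, against 158, 203 and 228 FPKM in male IVF-BLs, without overlap (0.96 ± 0.17, adjusted p 0.0036). In female sham NT-BLs it had 289, 233, 198, 187 and 245 FPKM, against 317, 367 and 445 FPKM in female IVF-BLs, again without overlap but lower (-0.68 ± 0.19, adjusted p 0.0279, and 0.0561 after median centring). Female SCNT-BLs differed from IVF-BLs by -0.44 ± 0.20 (adjusted p 0.437), and the male effect exceeded the female one for SCNT (1.40 ± 0.25, adjusted p 0.0048) and for sham (1.14 ± 0.25, adjusted p 0.0205). Of the 8 listed genes of the import motor and matrix Hsp70 system, PAM16, a J-like subunit that restrains DNAJC19, fell in male SCNT-BLs (-1.72 ± 0.33, adjusted p 0.0063, but 0.131 with all 35 embryos in the fit) and in male sham NT-BLs (-2.48 ± 0.65, adjusted p 0.0191, but 0.0533 at a pseudocount of 0.1), and TIMM50 fell in female sham NT-BLs (-1.69 ± 0.29, adjusted p 0.0015).

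In the cytosol, class A members assist the general Hsp70s in refolding. DNAJA4 had 5.49, 7.01 and 11.1 FPKM in male SCNT-BLs and 9.59, 20.8 and 28.9 FPKM in male sham NT-BLs, against 8.44, 10.5 and 12.7 FPKM in male IVF-BLs. All but 1 of the sham NT-BLs lay above the other male embryos. The rise of sham NT-BLs over IVF-BLs (0.85 ± 0.27, adjusted p 0.0483) was lost without any 1 of the 6 male IVF-BLs or of male sham NT-BLs 1, 2, 3, 5 and 6 (adjusted p up to 0.109), and at a pseudocount of 0.1 (0.0512) or with all 35 embryos in the fit (0.0654). The difference of SCNT-BLs from sham NT-BLs was larger (-1.31 ± 0.29, adjusted p 0.0074). In females DNAJA4 had 33.6, 23.3, 17.4, 6.38 and 22.9 FPKM in sham NT-BLs, against 11.3, 19.9 and 46.6 FPKM in IVF-BLs, and SCNT-BLs differed from IVF-BLs by -0.69 ± 0.34 (adjusted p 0.472).

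DNAJA2 had 38.1, 11.2, 21.7, 15.5 and 20.8 FPKM in female sham NT-BLs, against 30.04, 36.2 and 61.5 FPKM in female IVF-BLs. Only sham NT-BL 1 reached the IVF range. It fell to 0.529 times the IVF mean (-0.95 ± 0.29, adjusted p 0.0445), and the call was lost without any 1 of female IVF-BLs 1, 2, 4, 5 and 6 or female sham NT-BLs 2 to 5 (adjusted p up to 0.116), without the filter (0.0640) and after median centring (0.0596). DNAJA1 had 8.07, 12.1 and 16.8 FPKM in male sham NT-BLs, against 17.2, 19.1 and 24.2 FPKM in male IVF-BLs. These ranges did not overlap, yet the difference of -0.71 ± 0.25 did not pass (adjusted p 0.0771).

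Of the 8 class B members of the cytosol and nucleus, none was called by limma in any of the 6 contrasts, and 2 of 40 tests had an unadjusted p under 0.05, against 22.4% of the tests of all genes. Most of the class was low: DNAJB7, DNAJB8 and DNAJB13 had a median of 0 FPKM over the 35 embryos, DNAJB4 0.194, DNAJB3 0.200 and DNAJB2 1.07 FPKM. Such low members can hardly be called on this scale, so the small count does not show that the class is steady. Among the SCNT differences of the class were -0.77 ± 0.33 for DNAJB5 in male SCNT-BLs against male IVF-BLs (adjusted p 0.193) and -0.74 ± 0.38 for DNAJB6, a suppressor of protein aggregation, in female SCNT-BLs against female IVF-BLs (adjusted p 0.490). DNAJB1, the heat-shock-inducible class B protein kept outside the set, was not called either: male SCNT-BLs had 3.49, 9.43 and 21.8 FPKM, against 6.55, 11.7 and 13.3 FPKM in male IVF-BLs (-0.07 ± 0.34). In females it had 18.0, 24.3 and 35.2 FPKM in SCNT-BLs, against 14.6, 22.4 and 34.3 FPKM in IVF-BLs (0.08 ± 0.24).

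None of the 4 vesicle members tested was called by limma in the 6 contrasts, and 6 of 24 tests had an unadjusted p under 0.05, where 22.4% of the tests of all genes did (lowest adjusted p 0.0594, DNAJC13 in female SCNT-BLs against female sham NT-BLs). DNAJC13 (RME-8), an endosomal protein that works with the retromer, had 56.5, 86.8 and 198 FPKM in male sham NT-BLs, against 39.6, 56.2 and 68.3 FPKM in male IVF-BLs (0.70 ± 0.28, adjusted p 0.119). It was the steadiest member in SCNT-BLs, with coefficients of variation of 7.82% in males and 10.8% in females. DNAJC5, the cysteine string protein of secretory vesicles, had differences of opposite sign in the sexes, neither of them called: it had 35.3, 45.3 and 54.6 FPKM in male SCNT-BLs, against 51.6, 59.5 and 102 FPKM in male IVF-BLs (-0.53 ± 0.19, adjusted p 0.108), and 55.6, 86.9 and 109 FPKM in female SCNT-BLs, against 43.3, 57.4 and 77.1 FPKM in female IVF-BLs (0.48 ± 0.23, adjusted p 0.457). The difference between the sexes, -1.01 ± 0.29, did not pass (adjusted p 0.0690). DNAJC6 (auxilin), which strips clathrin from vesicles, had medians of 3.47 to 14.9 FPKM in the 6 embryo groups. DNAJC7, a co-chaperone between Hsp70 and Hsp90, had 26.9, 37.3 and 58.9 FPKM in male SCNT-BLs, against 21.5, 29.98 and 38.6 FPKM in male IVF-BLs (0.34 ± 0.23, adjusted p 0.435).

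Whether an effect differed between the sexes was tested for SCNT and for sham. For SCNT against IVF, 2 of 39 members passed with a greater male effect (0.849% of 15425 genes, against 1.06% with a smaller one), DNAJC8 (above) and DNAJC10, whose male effect exceeded the female one by 1.31 ± 0.33 (adjusted p 0.0382). The DNAJC10 result was lost without any 1 of male SCNT-BLs 1, 4, 5 and 6, male IVF-BLs 1, 2, 3 and 6, female SCNT-BLs 3, 4 and 6 or female IVF-BLs 1, 4 and 6 (adjusted p up to 0.0709), and also without female SCNT-BLs 5 and 6 together (0.0636). DNAJC3 came next, at 1.32 ± 0.37 (adjusted p 0.0649), and passed without male IVF-BL 3 (0.02745). For sham against IVF none of 38 members passed in limma under any setting run, where 1.22% of 15375 genes passed (0.384% higher and 0.833% lower). An unadjusted p under 0.05 was found for 7 of the 38 members and for 12.2% of the genes. So DNAJB12 and DNAJB11, called in 1 sex each against IVF-BLs, were not shown to differ between the sexes.

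Around the DNAJ members, the other parts of the Hsp70 machine changed in single genes. For the lists here and below, the shares of all genes called are those given above for each contrast. HSPA8 (Hsc70), the constitutive cytosolic Hsp70, was the most abundant of the partners in embryos and was not called: it had 887, 1141 and 1565 FPKM in male SCNT-BLs, 951, 1558 and 2636 FPKM in male sham NT-BLs, and 1024, 1211 and 1385 FPKM in male IVF-BLs. Of 13 Hsp70 family genes in the table, HSPA9 was the 1 called against IVF-BLs, and HSPA4 was lower in female SCNT-BLs than in female sham NT-BLs (-0.81 ± 0.19, adjusted p 0.0119). Another list held 12 genes, made up of nucleotide exchange factors, which release ADP from Hsp70, and of the BAG family. Of these, BAG6, listed by its family name and not for a shown exchange activity, rose in male and female sham NT-BLs against IVF-BLs (2.56 ± 0.23, adjusted p 1.3e-05, and 2.46 ± 0.24, adjusted p 2.5e-05). HSPH1 rose (0.85 ± 0.26, adjusted p 0.0429, and 0.0589 with no filter) and BAG2 fell (-1.97 ± 0.20, adjusted p 2.5e-05) in male sham NT-BLs, and HYOU1 rose in female sham NT-BLs (1.25 ± 0.23, adjusted p 0.0021).

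Among 12 Hsp90 genes and partners, the immunophilins FKBP4 (2.02 ± 0.28 in males and 2.16 ± 0.35 in females) and FKBP5 (2.20 ± 0.34 and 1.92 ± 0.29) rose in sham NT-BLs of both sexes (adjusted p 2.5e-04 to 8.4e-04). Of the same list CDC37 (-1.14 ± 0.24, adjusted p 0.0048) and STUB1 (-1.28 ± 0.32, adjusted p 0.0142) fell in male sham NT-BLs, HSP90AB1 fell in female ones (-0.87 ± 0.26, adjusted p 0.0368, and 0.0735 with no filter) and CDC37 fell in male SCNT-BLs (-0.82 ± 0.23, adjusted p 0.0392, and 0.114 with all 35 embryos). Of 7 heat shock response genes, HSPE1, the mitochondrial co-chaperonin, rose (1.22 ± 0.25, adjusted p 0.0077) and HSPB1 fell (-1.60 ± 0.27, adjusted p 0.0024) in male SCNT-BLs against male IVF-BLs. None of the 7 was called in female SCNT-BLs against female IVF-BLs. HSPB1 was also lower in male sham NT-BLs than in male IVF-BLs (-1.50 ± 0.39, adjusted p 0.0180), as was HSF1, the transcription factor of this response (-1.10 ± 0.26, adjusted p 0.0096). Against sham NT-BLs of their sex, HSPE1 was called higher in male SCNT-BLs (1.42, adjusted p 0.0014) and HSPD1 lower in female SCNT-BLs. Of the 4 J-domain proteins without a DNAJ symbol, GAK, the ubiquitous relative of DNAJC6, rose (1.24 ± 0.24, adjusted p 0.0030) and HSCB, the co-chaperone of iron-sulfur cluster assembly, fell (-1.79 ± 0.42, adjusted p 0.0101) in female sham NT-BLs against female IVF-BLs.

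The SCNT-BLs were set beside the fibroblasts they were made from. Each sex has 1 donor library, so these values have no replicate error and no test. All 6 male SCNT-BLs lay below the male donor for 15 of 38 members and above it for 6 (36.9% and 23.3% of all 15285 genes), and 17 had the donor within the SCNT range. All 6 female SCNT-BLs lay below the female donor for 18 of 39 members and above it for 6 (36.5% and 22.8% of 15578 genes). Summed over the members, the donors held 914 and 1017 FPKM.

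**Figure D4:**
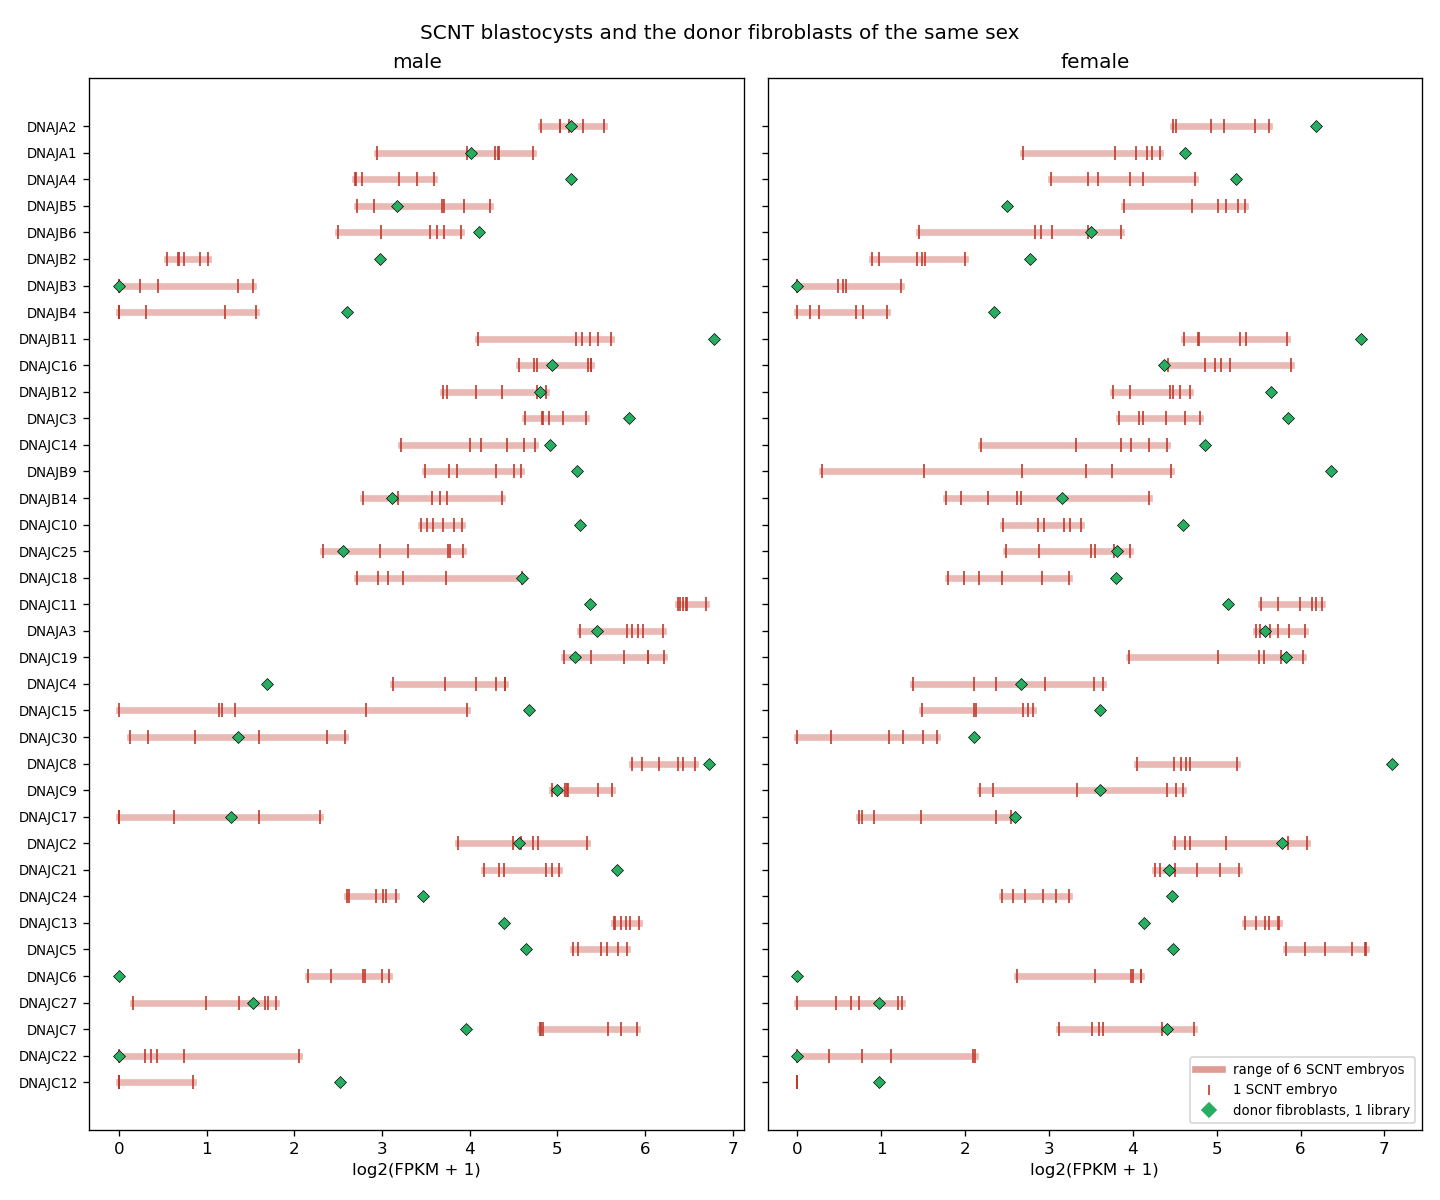
Members in the 6 SCNT-BLs of each sex (bar, range; ticks, single embryos) and in the donor fibroblasts of the same sex (diamond, 1 library), as log2(FPKM + 1). The diamonds of DNAJB11, DNAJC10, DNAJB9, DNAJC8 and DNAJA4 lie right of both SCNT ranges, and those of DNAJC6, DNAJC13, DNAJC5 and DNAJC11 lie left.

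Several ER members were higher in the fibroblasts than in the SCNT-BLs. DNAJB11 was at 110 and 104 FPKM in the male and female donors, DNAJC10 at 37.2 and 23.2 FPKM, DNAJB9 at 36.4 and 81.1 FPKM, and DNAJC3 at 55.4 and 56.8 FPKM, all above every SCNT-BL of the same sex. BiP itself, HSPA5, was at 136 to 231 FPKM in male SCNT-BLs, against 2573 FPKM in the male donor, and at 218 to 516 FPKM in female SCNT-BLs, against 1395 FPKM in the female donor. DNAJC8 was highest of all members in the female donor, at 136 FPKM (male donor 105 FPKM), and DNAJC15 had a median of 1.38 FPKM in male SCNT-BLs, against 24.6 FPKM in the male donor, and of 4.42 FPKM in female SCNT-BLs, against 11.2 FPKM in the female donor. Of the members that rose in male SCNT-BLs over male IVF-BLs, DNAJC8 and DNAJC10 had a male donor value above every male SCNT-BL, and DNAJC9 stood at 30.9 FPKM in the male donor, within the male SCNT range.

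DNAJC6 went the other way. It had 3.46, 5.94 and 7.46 FPKM in male and 5.15, 14.9 and 16.1 FPKM in female SCNT-BLs, against a listed value of 0 in both donor libraries, and it was above 0 in every embryo. DNAJC13, DNAJC5 and DNAJC11 were above the donor in every SCNT-BL of both sexes: DNAJC13, for example, had 49.1 to 60.0 FPKM in male SCNT-BLs, against 20.0 FPKM in the male donor, and 39.4 to 52.5 FPKM in female SCNT-BLs, against 16.6 FPKM in the female donor. Besides DNAJC6, the members DNAJC22, DNAJB3, DNAJC5B, DNAJC5G, DNAJB8 and DNAJB13 were at 0 in both donors. DNAJB4, at 5.06 and 4.07 FPKM in the donors, and DNAJB2, at 6.90 and 5.86 FPKM, were above all SCNT-BLs of their sex, and DNAJB2 had a median of 1.07 FPKM over the 35 embryos.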

How the data were processed

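RNA of single blastocysts and of donor cells was amplified by pico-profiling, a PCR-based method for poly-A RNA, made into libraries with a DNA kit that does not mark strand and sequenced on a HiSeq2500. The authors trimmed reads with Trim Galore, aligned them with TopHat to the UMD 3.1 bovine genome and computed the deposited FPKM values with Cufflinks and Cuffdiff, all as the submitters' processing notes name them without versions. The table held FPKM values but no read counts, so no count test, counting interval or detection floor was computed, and a value of 0 means only that the gene is listed at 0. PCR amplification from 1 embryo adds noise that the spread between embryos includes.

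The DNAJ members and all gene lists were chosen with earlier results of these data known. The 42 symbols matched RefSeq genes of ARS-UCD 2.0, which was used for names and for overlapping genes (14 members overlap another gene). Among these are DNAJB7 and the called members DNAJB11, DNAJB12, DNAJC9, DNAJC10 and DNAJC21, whose reads may be shared with the gene they overlap. No sequence is shown. Values were tested as log2(FPKM + 1) with limma 3.58.1 (lmFit, eBayes with trend) in R 4.3.3, on genes averaging above 0.1 FPKM over the groups compared, Benjamini-Hochberg adjustment over all genes tested and a threshold of 0.05. Only the groups compared entered a fit. Interactions were coded male effect minus female effect. Intervals are 95% intervals of the fit. Donor libraries entered no test. Figures and summaries were made in Python 3.11.15 with pandas 2.3.3 and matplotlib 3.10.9. The pipeline was tested on simulated data.

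Named members were those called in any fit, the 3 largest positive and 3 largest negative differences of each contrast, the 10 highest medians, the lowest members and the extremes of variation in IVF-BLs. DNAJC3, DNAJC6, DNAJC7, DNAJC13 and DNAJA1 values beyond that rule were added after they were seen. Alternatives were a pseudocount of 0.1, a filter of 1 FPKM, no filter, median centring, all 35 embryos in 1 fit, the replicate number as a block and leaving out each embryo. Leaving out female SCNT-BLs 5 and 6 together was added after seeing the data.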

Additional observations from a re-analysis of the deposited data

Results flagged for a closer look

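In 12 of 120 groups of members tested, 1 embryo lay far from the rest of its group by Dixon's test. The limit of this test gives about 1 in 20 by chance for normally distributed values. FPKM was tested without a log, for members named from these same data, so 12 of 120 cannot be read as an excess over that rate. DNAJB11 was at 122 FPKM in female sham NT-BL 5 (nearest embryo 45.3 FPKM) and at 16.1 FPKM in male SCNT-BL 3 (36.2 FPKM). DNAJB12 and DNAJB6 were at 31.6 and 23.5 FPKM in the same embryo, female IVF-BL 2 (nearest 15.8 and 12.7 FPKM), and DNAJB6 was at 11.9 FPKM in female sham NT-BL 2 (7.62 FPKM). DNAJC11 was at 135 FPKM in male IVF-BL 2 (95.4 FPKM) and at 103 FPKM in male SCNT-BL 6 (88.4 FPKM). DNAJC18 was at 2.54 FPKM in female IVF-BL 1 (5.22 FPKM). DNAJC5 was at 19.4 FPKM in female sham NT-BL 5 (55.5 FPKM), at 102 FPKM in male IVF-BL 3 (68.2 FPKM) and at 105 FPKM in male sham NT-BL 1 (51.7 FPKM). DNAJC8 was at 96.2 FPKM in male sham NT-BL 3 (58.6 FPKM).

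The SCNT effect differed between the sexes by the interaction test for DNAJC8 (male minus female effect 1.41, limma adjusted p 0.0199) and DNAJC10 (1.31, adjusted p 0.0382). Sex and flow cell cannot be told apart in these libraries, although an offset shared by both groups of a sex cancels in this test.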

How the results depend on the processing

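No named member reversed its direction under any alternative. Of 29 calls among 44 named results, 16 were kept under every setting and 20 whichever single embryo was left out. The numbers of members called moved by over 1.5 times in few settings. With all 35 embryos in 1 fit, 11 members were called in male sham NT-BLs against IVF-BLs (6 as reported). Leaving out female SCNT-BLs 5 and 6 left 1 member in the SCNT interaction (2). Leaving out 1 embryo at a time gave 3 to 4 members for male SCNT against IVF, 0 to 0 for female SCNT against IVF, 3 to 7 for male sham against IVF, 4 to 7 for female sham against IVF, 4 to 7 for male SCNT against sham, 5 to 6 for female SCNT against sham, 1 to 2 for the SCNT interaction and 0 to 0 for the sham interaction.

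The replicate numbers do not pair embryos: deviations of same-numbered embryos correlated at -0.239 to 0.0767, and at most 1 embryo number per contrast correlated best with its own. With the number as a block, 4 members were called in female sham against IVF (7), 3 in female SCNT against sham (5) and 0 in the SCNT interaction (2). The block ended 12 of the 29 calls. These were DNAJA4, DNAJC11 and DNAJC18 in male sham against IVF (adjusted p 0.0839, 0.1004 and 0.0614), DNAJA2, DNAJC2 and DNAJC9 in female sham against IVF (0.141, 0.1103 and 0.137), DNAJC11 and DNAJC4 in male SCNT against sham (0.125 and 0.0517), DNAJC2 and DNAJC21 in female SCNT against sham (0.0697 and 0.0704), and DNAJC8 and DNAJC10 in the SCNT interaction (0.0722 and 0.1096). Over all genes the block gave 652 calls for male SCNT against IVF (1040), 20 for female SCNT against IVF (49), 1306 for female sham against IVF (2061), 1060 for female SCNT against sham (1706), 94 for the SCNT interaction (295) and 69 for the sham interaction (187).

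For female SCNT against IVF, the all-gene count was 75 with a filter of 1 FPKM, 1 with no filter, 136 with all 35 embryos and 1 to 57 without 1 embryo. The SCNT interaction gave 181 genes without female SCNT-BLs 5 and 6 and 147 to 311 without 1 embryo, and the sham interaction 110 to 238. The partner and marker genes with a called difference given above with its value held 63 calls over all contrasts, some of them not shown above. Of the 63 calls, 45 were kept under every setting and 5 were lost with the block alone. Genes named above as called without a value were not in this count. Partner and marker genes were not refitted without single embryos. The cause of these changes was not tested. Low members rest on few reads, which FPKM does not show.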
